A study of Homo sapiens with 8 samples.

Results

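The regulators and markers of the epithelial-mesenchymal transition (EMT) analyzed here were CDH1, CDH2, VIM, FN1, ZEB1, ZEB2, SNAI1, SNAI2, TWIST1 and ESRP1. They were chosen by name, and their members are the 14 probes annotated with these 10 gene symbols, out of 34127 probes for 27363 genes or other named transcripts on the array. RNA was measured in MIA PaCa-2 and Capan-1, established human pancreatic ductal adenocarcinoma lines, of which Capan-1 comes from a liver metastasis. Each line had 2 arrays of parental, untransfected cells and 2 arrays of cells collected 48 h after transfection with 10 nM siRNA against HOXB7, a homeobox transcription factor. No array with scrambled siRNA was analyzed here, so transfection and HOXB7 loss cannot be told apart, and although the study describes experimental duplicates, the labels do not say that the 2 arrays of a group came from separate cultures. P-values therefore measure only the spread between arrays, which may be technical. The study asked what loss of HOXB7 changes in these cells. The lines are compared first here, as parental cells, and the siRNA-treated cells second.

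During EMT, epithelial cells lose junctions and apical-basal polarity and take on a spindle-shaped, motile form. The repressors of the ZEB, SNAIL and TWIST families bind E-box motifs in the promoters of epithelial genes, and the splicing factor ESRP1 maintains epithelial isoforms. E-cadherin (CDH1) holds epithelial cells together, whereas N-cadherin (CDH2), the intermediate filament protein vimentin (VIM) and the matrix protein fibronectin (FN1) are the usual mesenchymal markers. In pancreatic carcinoma, lines of both types are known.

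The readout of a member rests on the 60-base probes printed on the array. Those shown here are the VIM probe, which gave the largest fitted rise among the members, the FN1 probe, whose call depends on the background correction, and the TWIST1 probe that was detected on a single array. The VIM probe maps to chr10:17318353-17319262 on the plus strand of hg18 and spans an exon junction. The FN1 probe maps to chr2:215996462-215997140 on the minus strand, also across a junction, and is annotated to transcript variant 7. Whether it reads other FN1 transcripts was not tested. The TWIST1 probe lies at chr7:19122987-19123046 on the minus strand. Each has a reading frame without a stop codon.
VIM: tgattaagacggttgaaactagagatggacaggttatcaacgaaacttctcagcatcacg
FN1: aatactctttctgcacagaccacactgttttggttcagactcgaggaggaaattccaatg
TWIST1: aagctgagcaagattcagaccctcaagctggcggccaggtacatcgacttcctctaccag

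Levels are given as the log2 of the background-corrected intensity minus the 75th percentile of that array, so a level of 0 is a probe as bright as that percentile. Levels of different probes are not compared, since probes differ in how well they hybridize. Only probes detected well above background in both replicates of either group entered a comparison, and a probe was called at a limma Benjamini-Hochberg adjusted p under 0.05 over all probes tested. In parental cells 9 of the 10 members were tested and 8 were called, 3 higher in MIA PaCa-2 (VIM, ZEB1 and SNAI1) and 5 lower (CDH1, ESRP1, CDH2, FN1 and SNAI2). Over all genes, 71.8% were called between the lines, 40.1% higher and 31.7% lower, so most genes differed between these lines at this threshold. CDH1, FN1 and ZEB2 entered the test through Capan-1 alone, the line where they were brighter. In bulk RNA, fewer cells expressing a gene and less RNA per cell cannot be told apart. All fold changes between parental cells are MIA PaCa-2 over Capan-1. Of the log2 fold changes of all probes tested, 90% lay between -3.54 and 2.52, with a median of 0.11.

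**Figure D1:**
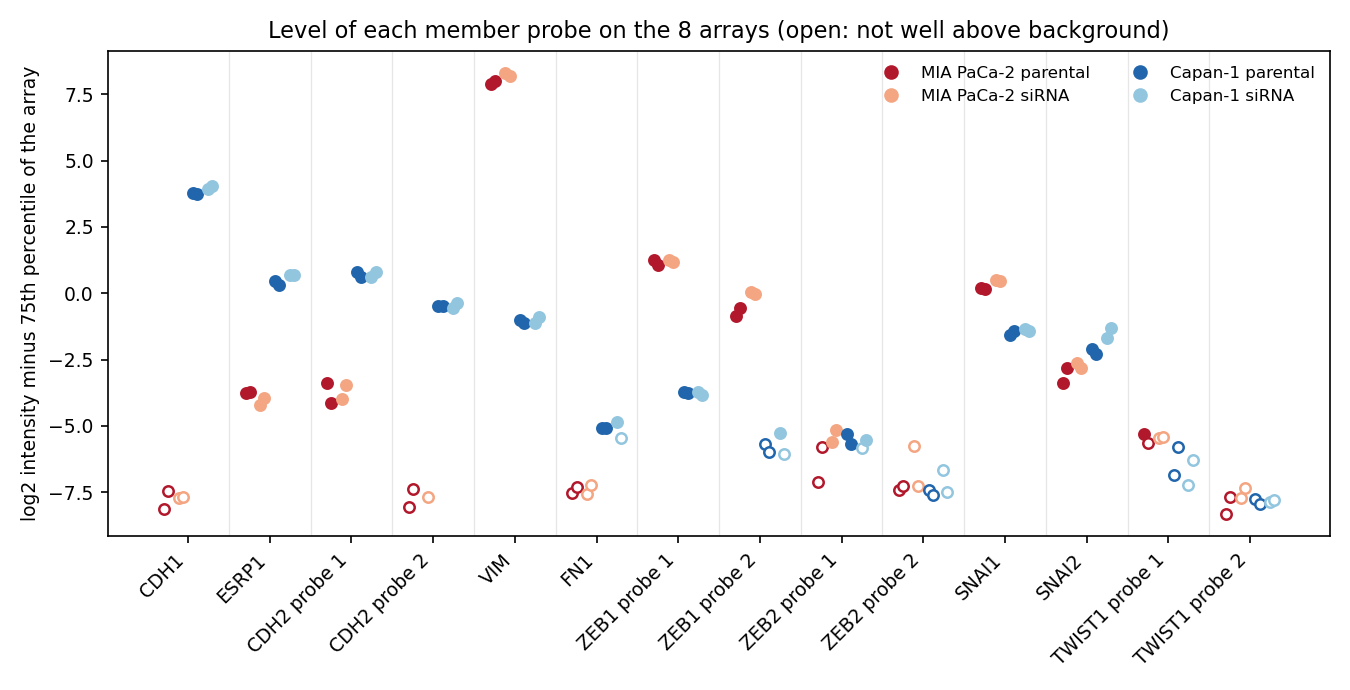
Level of the 14 member probes on the 8 arrays (vertical axis, log2 intensity minus the 75th percentile of the array), colored by cell line and treatment, with open circles where a probe was not well above background. VIM and ZEB1 lie high in MIA PaCa-2, CDH1 and ESRP1 high in Capan-1, and within a line the siRNA and parental arrays lie close together.

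The 2 epithelial members were lower in MIA PaCa-2. CDH1 was 3.77 and 3.73 on the Capan-1 parental arrays. On the MIA PaCa-2 parental arrays it read -8.13 and -7.46, not well above background. CDH1 was thus at least 776-fold lower in MIA PaCa-2, computed against the lowest level of a detected probe on each array. Its fitted log2 fold change was -11.5 (limma adjusted p = 3.62e-07). Wherever a fold is given as at least a value, the limma adjusted p beside it tests the fitted log2 fold change and not that fold. The CDH1 probe lies on 10 spots of each array, more than any other member. ESRP1, the epithelial splicing regulator, stood at 0.45 and 0.33 in parental Capan-1. In parental MIA PaCa-2 it was detected on both arrays, at -3.75 and -3.72. The log2 fold change of ESRP1 was -4.12 (SE 0.109), a level 17.4-fold lower (limma adjusted p = 1.07e-06). The groups of both genes were far from overlapping.

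VIM and CDH2, both used as mesenchymal markers, went opposite ways. VIM was 7.87 and 8.01 in parental MIA PaCa-2 and -1.01 and -1.11 in parental Capan-1, well above background on all 8 arrays. Its log2 fold change was 9.0 (SE 0.119), that is 513-fold higher in MIA PaCa-2 (limma adjusted p = 2.1e-07). CDH2 has 2 probes, and both were brighter in Capan-1. The brighter CDH2 probe read -3.38 and -4.14 in MIA PaCa-2 against 0.78 and 0.61 in Capan-1, a log2 fold change of -4.46 (SE 0.291) or 21.9-fold lower (limma adjusted p = 3.59e-05). The other probe was at -0.50 and -0.49 on the Capan-1 arrays and not well above background in MIA PaCa-2, at least 40.9-fold lower (limma adjusted p = 9.83e-06). N-cadherin mRNA was therefore higher in the line where E-cadherin mRNA was detected.

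FN1 was dim in both lines. Its probe read -5.10 and -5.08 in parental Capan-1, just above background, and -7.53 and -7.29 in parental MIA PaCa-2, not well above it. The fitted log2 fold change of FN1 was -2.32 (limma adjusted p = 2.12e-04), which rests on MIA PaCa-2 readings not well above background. Against the lowest level of a detected probe on each array, FN1 was at least 1.69-fold lower in MIA PaCa-2. With normexp background correction the log2 fold change of FN1 was -0.13 (limma adjusted p = 0.342), so the call was lost.

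Among the EMT repressors, ZEB1 and SNAI1 were higher in MIA PaCa-2. ZEB1, a zinc finger repressor of CDH1, stood at 1.27 and 1.07 in MIA PaCa-2 and at -3.71 and -3.76 in Capan-1 on its brighter probe. The log2 fold change was 4.91 (SE 0.099), 30.0-fold higher (limma adjusted p = 4.85e-07). The other ZEB1 probe gave -0.86 and -0.56 in MIA PaCa-2 and was not well above background in Capan-1, at least 32.4-fold higher (limma adjusted p = 1.62e-05). Both probes were higher in MIA PaCa-2. SNAI1, the zinc finger repressor known as Snail, was 0.19 and 0.16 in MIA PaCa-2 and -1.56 and -1.42 in Capan-1, 3.17-fold higher (log2 fold change 1.67, SE 0.0862, limma adjusted p = 1.35e-05).

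SNAI2 (Slug), the related repressor, differed in the other direction and by less. It was -3.40 and -2.83 in parental MIA PaCa-2 and -2.12 and -2.31 in parental Capan-1, a log2 fold change of -0.90 (SE 0.222, limma adjusted p = 0.0117). The groups did not overlap, yet without Capan-1 parental replicate 1 the value was -0.81 (limma adjusted p = 0.0646). ZEB2, the second ZEB repressor, was near background. Its brighter probe read -7.13 and -5.79 in MIA PaCa-2, not well above background, and -5.31 and -5.67 in Capan-1. The log2 fold change of ZEB2 was -0.97 (SE 0.44, 95% interval -2.05 to 0.11, limma adjusted p = 0.0925) and did not pass. Without MIA PaCa-2 parental replicate 2 it was -1.64 (limma adjusted p = 0.00546), and without scaling between arrays it was -0.94 (limma adjusted p = 0.0388). The other ZEB2 probe was not well above background on any array.

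TWIST1, a basic helix-loop-helix EMT factor, was not tested. One of its 2 probes was not well above background on any of the 8 arrays. The one whose sequence is printed above was above background only on MIA PaCa-2 parental replicate 1, at -5.31, and read -5.66 on the other MIA PaCa-2 parental array. In Capan-1 parental cells it read -6.87 and -5.80.

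**Figure D2:**
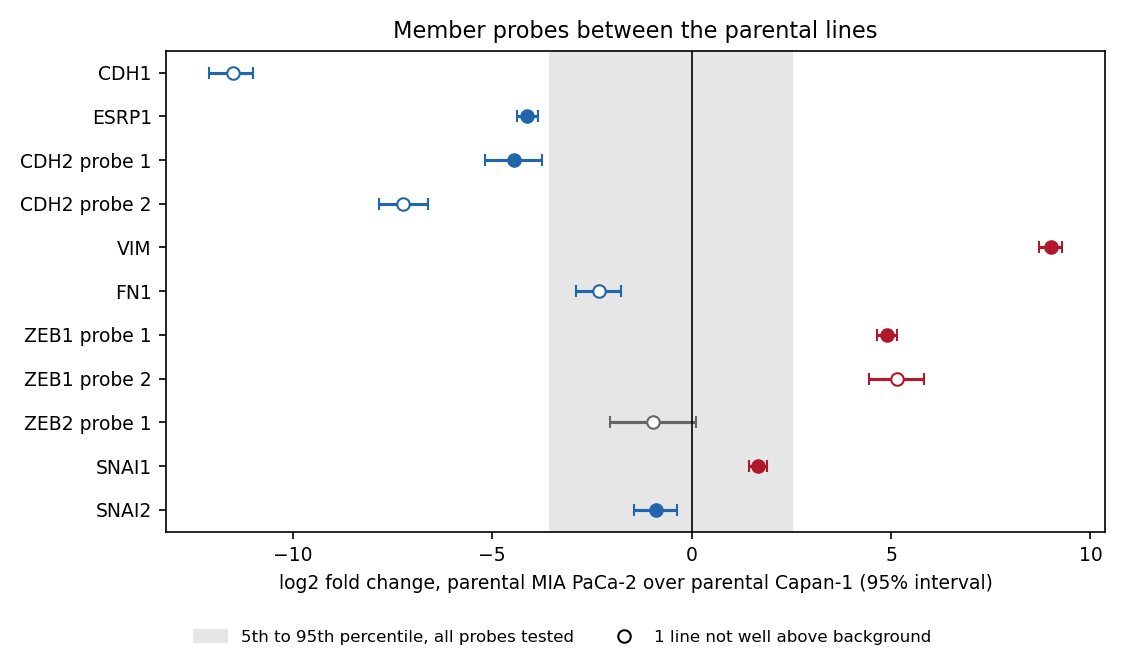
Log2 fold change of the 11 tested member probes between parental MIA PaCa-2 and parental Capan-1 (horizontal axis) with 95% intervals, red where called higher, blue where called lower and gray where not called. The shaded band holds the middle 90% of all probes tested, from -3.54 to 2.52. CDH1, ESRP1 and CDH2 lie below it and VIM and ZEB1 above it, whereas FN1, ZEB2, SNAI1 and SNAI2 lie inside it.

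CDH1, ESRP1, CDH2, VIM and ZEB1 also differed in the same direction when the siRNA arrays of both lines were compared in place of the parental ones, and so did SNAI1 and SNAI2. With normexp correction these 7 genes kept their direction and their call, but all of their fold changes were smaller in size. The offset of 50 that normexp adds shrinks fold changes of dim probes by construction. The log2 fold change was then -6.14 for CDH1, -2.42 for ESRP1, -2.90 and -2.16 for the brighter and the dimmer CDH2 probe, 3.05 and 1.92 for those of ZEB1 and -0.36 for SNAI2. VIM, at 8.60, and SNAI1, at 1.27, moved less. When the siRNA arrays were compared, FN1 was not called and ZEB2 turned to 0.31 (limma adjusted p = 0.549). Each line was hybridized on a slide of its own, so slide and line cannot be told apart in any of these differences. The study also describes a different culture medium and serum content for each line, which cannot be told apart from line either.

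Genes that work with the members were taken from 5 lists: junction and polarity genes, other epithelial factors and proteases, EMT transcription factors, mesenchymal markers and matrix genes, and the TGF-beta pathway, a classical inducer of EMT. Of the 30 junction and polarity genes, 28 were lower in MIA PaCa-2 and 1 was higher, where over all genes 31.7% were lower and 40.1% higher. The median log2 fold change was -3.54, beside 0.11 over all probes. Genes detected on both arrays of only 1 parental line entered the test through that line, and the filter favored a higher level there. In this list CLDN3, DSC2, EPCAM, MAL2, MARVELD3 and RAB25 entered through Capan-1 alone. The cell adhesion molecule EPCAM was at least 3480-fold lower (limma adjusted p = 2.66e-07). MAL2, a protein of apical transport, was at least 2930-fold lower (limma adjusted p = 1.92e-07). The tight junction protein CLDN3 had a log2 fold change of -10.4 (SE 0.461, limma adjusted p = 7.26e-06) and was above background on 1 of the 2 MIA PaCa-2 parental arrays. The exception was EVPL, a desmosomal linker, at 0.56 (SE 0.108, limma adjusted p = 0.00436).

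Of the 22 epithelial factors and proteases tested, 20 were lower, beside 31.7% of all genes, with a median of -3.91. CDS1, KLF5, OVOL1, S100A14 and SPINT1 entered through Capan-1 alone. The protease inhibitor SPINT1 was at least 510.0-fold lower, S100A14 at least 262-fold and the transcription factor OVOL1, which is known to restrain EMT, at least 109-fold. Their limma adjusted p were 3.83e-07, 1.94e-07 and 6.24e-07. For GRHL1 and GRHL2, grainyhead factors of epithelia, 1 probe was called lower and 1 higher. The GRHL2 probes gave -6.52 and 1.85 and those of GRHL1 -1.97 and 1.07, and neither gene was counted.

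The other EMT transcription factors were split. Of 19 tested, 7 were higher in MIA PaCa-2 and 10 lower, with a median of -0.13, where 40.1% of all genes were higher and 31.7% lower. LEF1, TCF4 and TWIST2 entered through Capan-1 alone. ID3, an inhibitor of basic helix-loop-helix factors, had the largest rise, a log2 fold change of 6.34 (SE 0.127, limma adjusted p = 4.75e-07). FOXC1, a forkhead factor, was 3.24 (SE 0.0898, limma adjusted p = 1.3e-06). LEF1, a nuclear partner of beta-catenin, was at least 34.8-fold lower (limma adjusted p = 2.03e-06) and TCF4 at least 27.7-fold lower (limma adjusted p = 1.68e-05). HMGA2, a chromatin protein, was called lower through a probe at least 109-fold lower (limma adjusted p = 6.78e-07). Its brightest probe did not pass (0.39, limma adjusted p = 0.354), and the probes of HMGA2 therefore disagree.

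Of 25 mesenchymal markers and matrix genes tested, 18 were higher in MIA PaCa-2 and 6 lower, with a median of 1.32. The shares over all genes were 40.1% higher and 31.7% lower. CNN1, DDR2 and SPARC entered through MIA PaCa-2 alone and LOX through Capan-1 alone. The collagen chain COL6A2 was at least 32.2-fold higher on one probe (limma adjusted p = 6.98e-05) and 4.70-fold higher on the brighter one (limma adjusted p = 1.71e-05). LOXL2, a collagen crosslinking enzyme, had a log2 fold change of 5.36 (SE 0.0792, limma adjusted p = 2.66e-07) and the collagen receptor DDR2 of 5.16 (SE 0.279, limma adjusted p = 1.6e-05), the latter above background on 1 of the 2 Capan-1 parental arrays. Among those lower, the G protein subunit GNG11 gave -2.91 (limma adjusted p = 1.09e-05), the membrane protease MMP14 gave -2.71 (limma adjusted p = 2.51e-04) and THBS1 gave -1.61 (limma adjusted p = 0.00854). Of 8 fibroblast markers 4 were tested. COL1A2 and COL3A1 were higher in MIA PaCa-2, COL1A1 was lower (log2 fold change -1.11, SE 0.306, limma adjusted p = 0.018) and 1 did not pass. COL1A1 entered through Capan-1 alone, and COL1A2, COL3A1 and DCN through MIA PaCa-2 alone. Parental MIA PaCa-2 had 3 of 8 above background on both arrays, with a summed linear level of 14 to 14.8, and Capan-1 had 1 of 8, with 0.137 to 0.142. COL1A2 made up most of the difference in that sum, with levels of 3.80 and 3.87 in MIA PaCa-2 and -6.23 and -5.53 in Capan-1. FAP, LUM, PDGFRA and PDGFRB, which mark fibroblasts, were not above background on both arrays of either parental line, and COL1A1 was so only in parental Capan-1. Their part in the counts of mesenchymal genes was not tested.

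In the TGF-beta pathway 7 of 20 genes were higher and 10 lower, with a median of -0.53, where 40.1% of all genes were higher and 31.7% lower. LTBP2 and SMAD4 entered through MIA PaCa-2 alone, and LTBP1, TGFB2 and TGFBR1 through Capan-1 alone. SMAD4, the common mediator, was -1.44 and -0.66 in MIA PaCa-2 and not well above background in Capan-1, at least 25.5-fold higher (limma adjusted p = 7.76e-06). LTBP2, which resembles the proteins that store TGF-beta in the matrix, was at least 4.65-fold higher (limma adjusted p = 5.55e-04), and the co-receptor ENG had a log2 fold change of 3.25 (SE 0.176, limma adjusted p = 1.63e-05). TGFBR2, the type II receptor, went the other way, from 3.51 and 3.59 in Capan-1 to -4.14 and -3.60 in MIA PaCa-2, a log2 fold change of -7.43 (SE 0.256, limma adjusted p = 2.84e-06). The ligand TGFB2 was at least 34.2-fold lower (limma adjusted p = 1.03e-06) and the SMAD co-repressor SKIL 9.26-fold lower (limma adjusted p = 1.46e-05). SMAD4 was thus not detected in Capan-1, and TGFB2 was not detected in MIA PaCa-2.

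**Figure D3:**
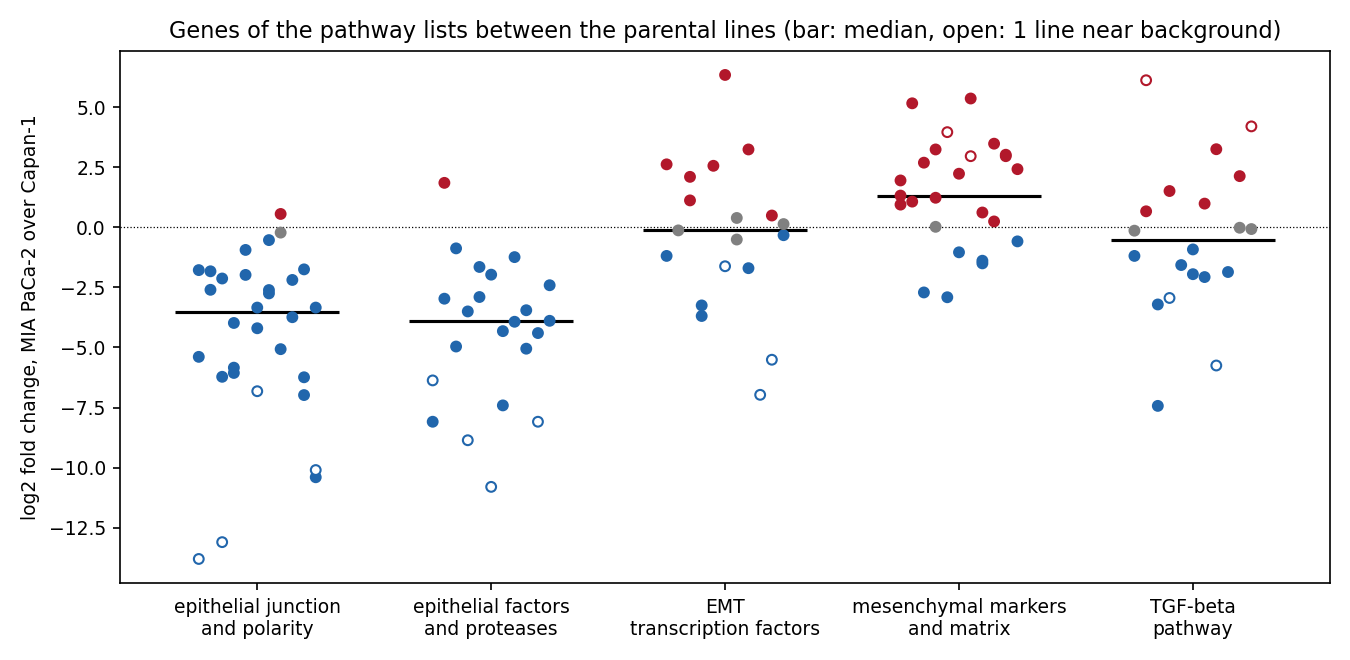
Log2 fold change between parental MIA PaCa-2 and parental Capan-1 (vertical axis) for each tested gene of the 5 lists, by its brightest probe. Red points were called higher, blue points lower and gray points not called; open points were not well above background in 1 line, where the fitted value is no bound, and horizontal bars are medians. The medians are -3.54, -3.91, -0.13, 1.32 and -0.53 from left to right.

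The E-box bound by ZEB and SNAIL proteins was searched in RefSeq promoters of GRCh38.p14, over the 250 bases before each start, as CAGGTG or its reverse complement CACCTG. It was present in 4781 of 27305 promoters (17.5%). Promoters were found for 5 members, and of these only that of ZEB1 held the motif, while those of CDH2, VIM, FN1 and ZEB2 did not. Of 16 promoters found for the junction and polarity list 9 held it (56.2%), and 5 held it more than once. The counts were 6 of 14 for the epithelial factors, 2 of 23 for the mesenchymal genes and 0 of 16 for the EMT transcription factors. For the TGF-beta pathway it was 0 of 19. Acinar cell markers had the largest share, 4 of 6 (66.7%), so a high share was not particular to the epithelial lists. Ductal markers gave 1 of 3, fibroblast markers 0 of 2, leukocyte markers 0 of 4 and endothelial markers 0 of 2. A match is a description of the letters and not a bound site. The ZEB1 window is chr10:31318167-31318416 on the plus strand, with its box 57 bases before the start. The windows of CRB3 (chr19:6464021-6464270, plus strand, 5 boxes) and AP1M2 (chr19:10587313-10587562, minus strand, 3 boxes) held the most boxes of the epithelial lists. They are shown with the boxes in capitals.
ZEB1: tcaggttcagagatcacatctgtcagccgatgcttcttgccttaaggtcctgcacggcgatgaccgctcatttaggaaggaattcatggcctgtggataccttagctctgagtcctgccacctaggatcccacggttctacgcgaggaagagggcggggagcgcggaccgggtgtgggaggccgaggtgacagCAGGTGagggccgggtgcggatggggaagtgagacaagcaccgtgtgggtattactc
CRB3: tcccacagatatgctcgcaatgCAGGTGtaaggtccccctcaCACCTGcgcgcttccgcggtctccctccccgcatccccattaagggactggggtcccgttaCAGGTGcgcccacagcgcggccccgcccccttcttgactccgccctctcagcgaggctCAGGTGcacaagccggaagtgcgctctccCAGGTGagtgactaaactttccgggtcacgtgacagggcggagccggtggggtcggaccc
AP1M2: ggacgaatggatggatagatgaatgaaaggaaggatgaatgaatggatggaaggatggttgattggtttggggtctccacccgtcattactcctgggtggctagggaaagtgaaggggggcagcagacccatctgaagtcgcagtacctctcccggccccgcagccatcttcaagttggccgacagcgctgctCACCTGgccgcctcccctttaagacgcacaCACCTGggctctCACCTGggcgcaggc
CRB3, an apical polarity protein, read -4.98 and -4.75 in parental MIA PaCa-2 and 1.45 and 1.31 in parental Capan-1 (log2 fold change -6.24, SE 0.165, limma adjusted p = 1.08e-06). AP1M2, an adaptor of basolateral sorting, read -3.44 and -3.41 against 1.93 and 1.99 (log2 fold change -5.39, SE 0.0905, limma adjusted p = 3.32e-07). The promoters of CLDN3 and SPINT1, which were also lower in MIA PaCa-2, held no box.

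HOXB7 itself was first checked on its 1 probe. In parental MIA PaCa-2 it read -4.82 and -4.09, and after siRNA it was not well above background, at least 2.45-fold lower (limma adjusted p = 0.0173). In Capan-1 it went from -2.48 and -2.34 to -5.26 and -4.80, a log2 fold change of -2.62 (SE 0.261) that did not pass over all probes (limma adjusted p = 0.121). The siRNA arrays lay below the parental ones in both lines.

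After siRNA, no member was called in either line. In MIA PaCa-2 this was 0 of 7 tested members, where limma called 2.29% of all genes. At an unadjusted p under 0.05 there were 4 members, and 20.5% of all probes passed that threshold. In Capan-1 it was 0 of 9, where limma called 0.00528% of all genes. There 2 members had an unadjusted p under 0.05, beside 12.4% of all probes. An exact permutation test of 2 arrays against 2 cannot give a p below 0.33.

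In MIA PaCa-2 the fitted differences of 6 of the 7 members were above 0, with a median of 0.30 beside 0.02 over all probes. ZEB2, counted among these 6, entered the test through the siRNA arrays alone, so the filter favored a value above 0 for it. Without scaling between arrays the median over all probes moved to -0.19, and CDH2 and ZEB1 then lay below 0, as CDH2 also did with quantile normalization. VIM went from 7.87 and 8.01 to 8.31 and 8.20 (log2 fold change 0.31, 95% interval 0.02 to 0.61, limma adjusted p = 0.22). SNAI1 went from 0.19 and 0.16 to 0.49 and 0.45 (0.30, 95% interval 0.09 to 0.51, limma adjusted p = 0.136). For both genes the siRNA arrays lay above the parental ones. ESRP1 went from -3.75 and -3.72 to -4.22 and -3.96 (-0.35, 95% interval -0.62 to -0.09, limma adjusted p = 0.151), and with normexp correction its value was 0.03. The dimmer ZEB1 probe went from -0.86 and -0.56 to 0.05 and -0.05 (0.71, 95% interval 0.03 to 1.39, limma adjusted p = 0.229), while the brighter one gave 0.03 (95% interval -0.21 to 0.27). With normexp correction the dimmer probe was called (0.57, limma adjusted p = 0.0191). The 2 ZEB1 probes therefore did not give the same result.

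The remaining MIA PaCa-2 values were wider. SNAI2 went from -3.40 and -2.83 to -2.62 and -2.82 (0.40, 95% interval -0.15 to 0.94). ZEB2 was above background on both siRNA arrays, at -5.61 and -5.16, and on neither parental array (at least 1.38-fold higher, limma adjusted p = 0.245). CDH2 gave 0.03 (95% interval -0.68 to 0.74), and its arrays overlapped. CDH1, FN1 and TWIST1 were not well above background after siRNA either.

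In Capan-1, SNAI2 had the largest fitted difference of the members. It went from -2.12 and -2.31 to -1.68 and -1.33, both siRNA arrays above both parental ones (0.71, 95% interval 0.16 to 1.25, limma adjusted p = 0.334). ESRP1 went from 0.45 and 0.33 to 0.69 and 0.68 (0.29, 95% interval 0.03 to 0.56, limma adjusted p = 0.371). CDH1 went from 3.77 and 3.73 to 3.93 and 4.04 (0.23, 95% interval -0.28 to 0.74, limma adjusted p = 0.674). VIM (0.05, 95% interval -0.24 to 0.34), ZEB1 (-0.05, 95% interval -0.29 to 0.20) and CDH2 on its brighter probe (-0.00273, 95% interval -0.72 to 0.71) had overlapping arrays. SNAI1 gave 0.11 (95% interval -0.10 to 0.32). FN1 (-0.08, 95% interval -0.64 to 0.48) and ZEB2 (-0.21, 95% interval -1.28 to 0.87) were near background.

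**Figure D4:**
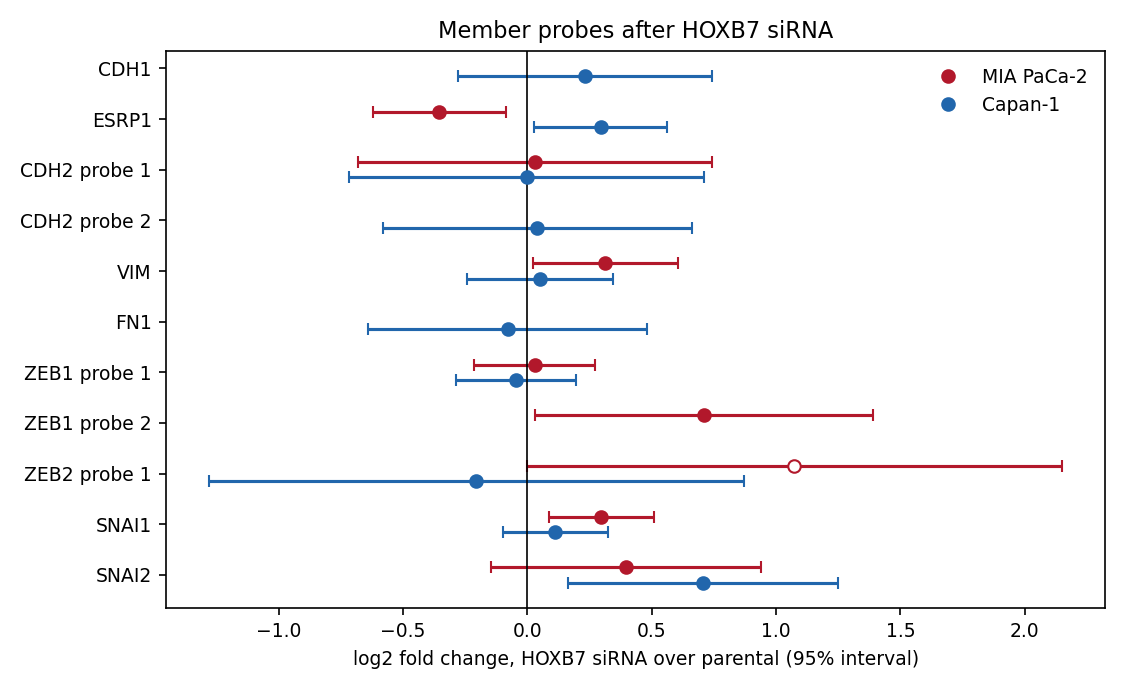
Log2 fold change of member probes after HOXB7 siRNA (horizontal axis, siRNA over parental) with 95% intervals, in MIA PaCa-2 (red) and Capan-1 (blue). The open circle is not well above background in 1 group. For ESRP1 the MIA PaCa-2 value is -0.35 and the Capan-1 value 0.29, and no value passed the limma threshold over all probes.

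The difference of the siRNA effects between the lines was tested for 9 members, and none was called. Over all genes 0.0097% were called. At an unadjusted p under 0.05 there was 1 member, ESRP1, beside 11.1% of all probes. Its values were -0.35 for MIA PaCa-2 and 0.29 for Capan-1. Their difference was -0.65 (SE 0.154, 95% interval -1.02 to -0.27, limma adjusted p = 0.246). With normexp correction it was -0.18 (limma adjusted p = 0.865), and over the other alternatives it ran from -0.77 to -0.52. The siRNA arrays of each line lay at positions 1 and 2 of the slide and the parental arrays at positions 3 and 4, so position and treatment cannot be told apart.

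Among the list genes, 5 passed after siRNA in MIA PaCa-2, where limma called 2.29% of all genes. Tested there were 25 junction and polarity genes, 18 epithelial factors and proteases, 17 EMT transcription factors, 24 mesenchymal genes and 17 TGF-beta genes. The junction gene CGN went from -2.51 and -2.61 to -1.52 and -1.65 (0.97, SE 0.0888, limma adjusted p = 0.0195). The tight junction genes MARVELD2 (-0.80, SE 0.125, limma adjusted p = 0.0438) and F11R (-0.59, SE 0.088, limma adjusted p = 0.0409) fell. ELF3, an epithelial ETS factor, fell from 0.25 and 0.03 to -0.89 and -0.68 (-0.93, SE 0.122, limma adjusted p = 0.0323). PLAUR, the urokinase receptor, rose from 1.77 and 1.59 to 2.27 and 2.44 (0.68, SE 0.109, limma adjusted p = 0.0476). Among the cell type markers, 7 ductal ones were tested and the mucin MUC1 fell (-0.92, SE 0.096, limma adjusted p = 0.0247). Of 6 leukocyte markers tested, CD68 rose (0.70, SE 0.109, limma adjusted p = 0.0438). No fibroblast, endothelial or acinar marker passed. All 7 lost the call when the MIA PaCa-2 arrays were fitted alone (limma adjusted p = 0.119 to 0.149). Of the 18 alternatives, each passed in 4 to 8, and with 1 of the 8 arrays left out in 0 to 2 of 8 fits. The direction was the same in all 18. No list gene passed in Capan-1. There CGN gave 0.13 (limma adjusted p = 0.57) and ELF3 -0.18 (limma adjusted p = 0.575).

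The labels call both lines ductal adenocarcinoma cells. Of 9 ductal markers, 9 were above background on both arrays in parental Capan-1 and 7 in parental MIA PaCa-2, where EPCAM and CFTR were not. Their levels differed, with 8 of the 9 called lower in MIA PaCa-2, beside 31.7% of all genes, and a median log2 fold change of -2.52. The summed linear level was 401 to 437 in parental MIA PaCa-2 and 1250 to 1320 in parental Capan-1. Median spot intensity ran from 39.5 to 54.0, 69.2% to 74.3% of spots were well above background on an array, and no spot was saturated.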

How the data were processed

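One-color Agilent 4x44K arrays were scanned and processed by the authors with Feature Extraction 9.5.3, per the labels. The deposited intensity is background-subtracted and detrended per spot, and the authors' deposited table of log2 values is its log2 without scaling between arrays. Here, log2 intensities of unflagged spots were averaged per probe and the 75th percentile of each array over gene probes was subtracted. Symbols were updated through RefSeq accessions for 24824 of 34127 probes. Means of 4 groups over 8 arrays were fitted with limma 3.58.1 (lmFit, eBayes) in R 4.3.3, two-sided, with Benjamini-Hochberg adjustment over the probes tested, and the fit was tested on simulated data. A gene was called when at least 1 probe passed at 0.05 in a direction and none in the other. Folds against a group not above background use, per array, the lowest level of a detected probe as the floor. Some probes not well above background read brighter than this floor, so these folds are not strict bounds. R read files with the data.table package, version 1.17.8. Python 3.11.15 with numpy 2.4.6, pandas 2.3.3 and matplotlib 3.10.9 made tables and figures. Depth is limited by 2 arrays a group. The members and lists were chosen with earlier results of these data known. Named are all members with all probes, the 3 largest calls per list and direction between parental cells, every list gene called after siRNA, and HOXB7; 1 gene that this rule names is not reported here. CRB3 and AP1M2 were named for their boxes after these were seen. Alternatives were normexp (offset 50), quantile and no scaling, flagged spots kept, the authors' table, other filters, other arrays, a replicate block, an intensity trend, and each array left out.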

Additional observations from a re-analysis of the deposited data

How the results depend on the processing

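Between parental cells 6 to 9 members were called under all alternatives, 6 where only probes detected on every array were kept, which removes CDH1 and FN1, and 7 to 9 with 1 array left out. List genes called were 107 in the main fit, where 71.8% of all genes were called, and 84 to 109 under the alternatives. Comparing the siRNA arrays, chosen after seeing the data, gave 7 members and 109 list genes. After siRNA no member was called under any alternative, save 1 with normexp in MIA PaCa-2 (ZEB1). Some alternatives called very few probes of the whole array there. With the MIA PaCa-2 arrays alone it was 0 of 23710, and with the replicate block 12 lower and 7 higher. Without the filter on dim probes 5 were lower and 5 higher. A lack of member calls under these alternatives therefore says little. Some fitted siRNA values changed sign, most of them near 0. With normexp these were ESRP1 in MIA PaCa-2 (0.0266) and ZEB2 (0.0448), FN1 (0.128) and ZEB1 (0.0966) in Capan-1. With quantile normalization it was CDH2 in MIA PaCa-2 (-0.0729). Without scaling, which moved the median over all probes to -0.194 for MIA PaCa-2 and -0.158 for Capan-1, they were CDH2 (-0.186) and ZEB1 (-0.187) in MIA PaCa-2 and SNAI1 (-0.0458), VIM (-0.106) and the dimmer CDH2 probe (-0.117) in Capan-1. Between lines, ZEB2 turned to 0.312 on the siRNA arrays. With normexp the ESRP1 difference of siRNA effects was -0.183. The cause was not tested. With 1 array left out, siRNA values that changed sign ranged from -0.068 to 0.126 for the brighter ZEB1 probe in MIA PaCa-2, from -0.349 to 0.41 for the brighter CDH2 probe in MIA PaCa-2, from -0.103 to 0.0975 for the brighter CDH2 probe in Capan-1, from -0.0768 to 0.18 for VIM in Capan-1, from -0.049 to 0.129 for the dimmer CDH2 probe in Capan-1 and from -0.385 to 0.226 for FN1 in Capan-1.
The replicate numbers do not pair the samples, since deviations of same-numbered arrays correlated at -0.0465 to 0.0858. With the replicate block 8 members and 107 list genes were called between parental cells and 0 members after siRNA. The parental comparison has 1 line on each slide.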

Other observations

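Some marker lists of other cell types were read in the same parental arrays. Of 6 leukocyte markers 6 were above background on all parental arrays of both lines, with summed linear levels of 4.90 to 5.15 in MIA PaCa-2 and 1.78 to 1.85 in Capan-1. CD14, a co-receptor for lipopolysaccharide, was 18.4-fold higher in MIA PaCa-2 (limma adjusted p = 1.41e-06). PTPRC, the defining leukocyte marker, was at least 3.05-fold higher on a dimmer probe, at -4.12 on average in MIA PaCa-2 (limma adjusted p = 5.0e-04). That probe was not well above background in Capan-1. The brightest PTPRC probe averaged -1.94 in parental MIA PaCa-2 and -3.69 in parental Capan-1. The remaining PTPRC probes were not well above background on any array. Of 5 endothelial markers 2 were above background in each line, and PECAM1, KDR and TEK were not. Of 6 acinar markers 2 were above background in Capan-1 and 1 in MIA PaCa-2. The digestive protease PRSS1 stood at 2.86 on average in Capan-1 and was at least 396-fold lower in MIA PaCa-2 (limma adjusted p = 4.69e-07), whereas CPA1, CPB1, CTRB1 and PNLIP were not above background on both arrays of either line.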
